A study of Mus musculus with 6 samples.

Results

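Untreated brown adipocyte cultures were compared between a late and an early point of their differentiation, as the library labelled D7 against the library labelled D3, with 1 library on each side. All 13153 genes that averaged 20 or more normalized counts over these 2 libraries entered the comparison, which is 50.1% of the 26264 gene symbols listed. A normalized count is the deposited read count of a gene divided by the median-of-ratios size factor of its library, computed over all 6 libraries of the study. Just inside the limit lay Gm4532 and Slc18a1 (means of 20.03 and 20.05, log2 differences of -1.15 and -0.22), and just outside it lay Gm11517 and 2310040G24Rik (means of 19.985 and 19.997, log2 differences of 0.48 and 1.46).

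The study asked how a pretreatment of preadipocytes with fibroblast growth factor 8 (FGF8) acts on them and on the adipocytes they become. Its bulk RNA sequencing series holds 6 libraries, 1 for each of 2 pretreatments (5.5 nM FGF8 for 48 h, or none) on 3 days (D0, D3 and D7). The 2 untreated libraries compared here held 19468173 counts at D3 and 38551551 at D7, and the untreated D0 library and the FGF8-pretreated libraries are set beside them as values. The cells of all 6 libraries are wild-type Bl6N brown preadipocytes from the stromal vascular fraction, immortalized with the SV40 large T antigen, and no label tells whether the libraries came from 1 or several cultures. All differentiating cultures received 2 days of an induction cocktail of insulin, triiodothyronine, IBMX, dexamethasone, indomethacin and rosiglitazone, and thereafter insulin, triiodothyronine and rosiglitazone. The D3 cells had then spent 1 day, and the D7 cells 7 days, on the latter medium, so that the paper counts D7 as day 9. The growth protocol label speaks of primary white preadipocytes, in contrast to the titles and the methods. Controls are named untreated in the labels and vehicle-treated in the methods.

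Brown adipocytes are fat cells that burn fatty acids to make heat. They hold many mitochondria, and the uncoupling protein UCP1 lets protons pass the inner mitochondrial membrane without making ATP. During differentiation, PPAR-gamma and C/EBP factors switch on the genes of fat storage as well as the respiratory and heat-producing equipment of the cell. Dexamethasone and IBMX, a glucocorticoid and a phosphodiesterase inhibitor that raises cAMP, are used to start the process and are then withdrawn.

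Between D3 and D7, 1154 of the 13153 genes were at least 2-fold higher (8.77%) and 581 were at least 2-fold lower (4.42%), while 11418 (86.8%) lay within 2-fold. A gene is said to rise or fall here when its difference of log2(normalized count + 1) between the libraries reached 2-fold, since with 1 library a side no test was possible and no difference has a replicate check. Of the changed genes, 66.5% were higher, and this split was 53.8% when libraries were scaled by their total counts. That scaling placed the median log2 difference of all genes at -0.18, against -0.041 with the size factors. The middle 50% of genes lay between -0.35 and 0.36. A 4-fold rule left 405 higher and 94 lower genes, and a 16-fold rule 75 and 5. The intervals given below are 95% exact binomial intervals of the ratio of the 2 counts of a gene and cover counting error only. They lay above 0 for all 1154 higher genes and below 0 for all 581 lower genes, and beyond 2-fold for 825 and 339 of them. That none of them reached 0 follows largely from the 2-fold rule and the limit of 20 normalized counts. Even for Gm4532, just inside that limit, the interval was -2.22 to -0.23, so this is no separate support for the calls. In such bulk cultures, more cells of a kind and more RNA per cell cannot be told apart.

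**Figure D1:**
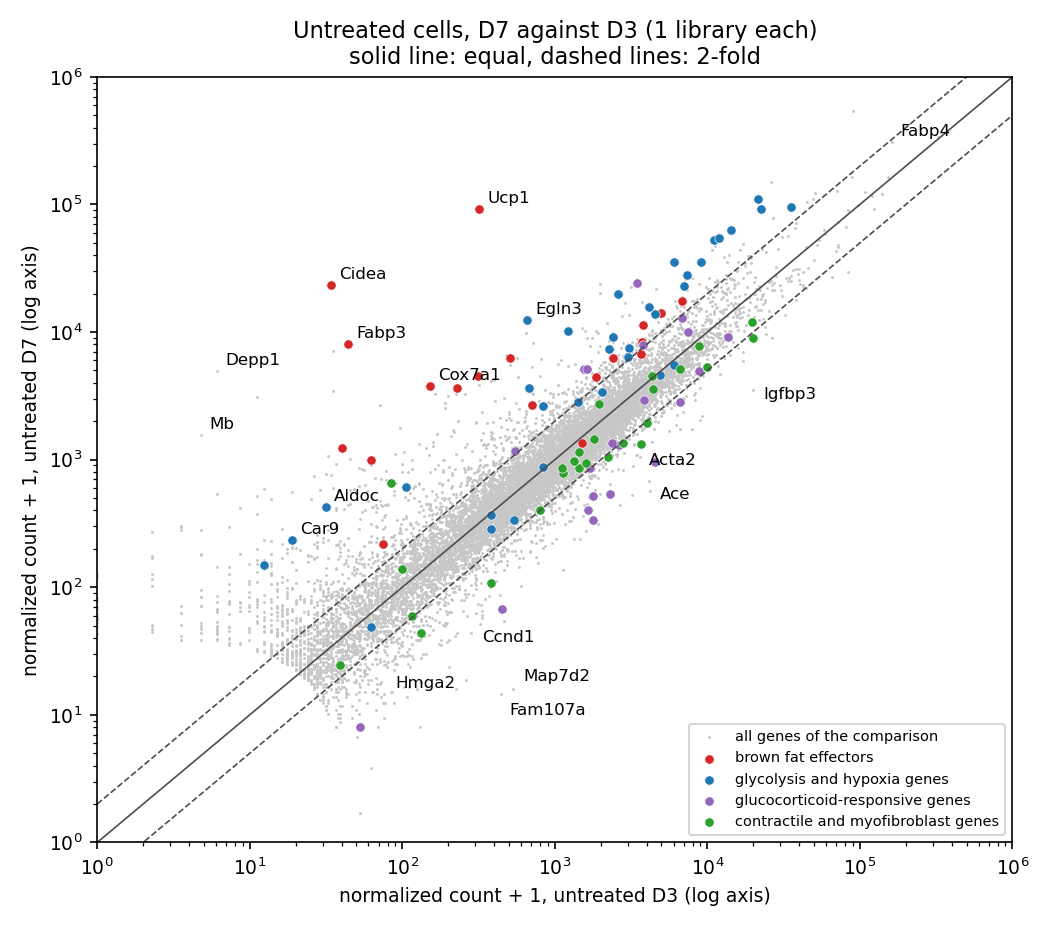
Normalized count + 1 of each of the 13153 genes in the untreated D3 library (x axis) and the untreated D7 library (y axis), both log axes, 1 dot per gene. The solid line marks equal values and the dashed lines 2-fold. Brown fat effectors (red) and glycolysis and hypoxia genes (blue) lie mostly above the upper dashed line, with Cidea and Ucp1 highest above it, while contractile genes (green) lie mostly below the solid line and glucocorticoid-responsive genes (purple) lie on both sides.

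The 15 largest increases among genes that averaged 100 or more normalized counts in the pair joined brown fat genes with genes of other known roles. Depp1, a gene induced by FOXO factors and progesterone, led with 5.09 normalized counts at D3 and 4915 at D7, a log2 difference of 9.66 (95% interval 8.56 to 11.79). Cidea, a protein of the lipid droplet surface that is abundant in brown fat, followed with 33.1 and 23470 normalized counts (9.43, interval 8.92 to 10.08). Mb, the oxygen-binding protein myoglobin, had 3 reads at D3 and 2193 at D7 (8.34, interval 7.12 to 10.95). All 3 were low at D3, with 3 to 26 reads, and Cidea had 0 counts at D0. Rassf4, a RAS-association domain protein, had 184 normalized counts at D0, 10.2 at D3 and 3105 at D7, so that it was lowest in the middle library. Rassf4 and Depp1 share a locus: Depp1 lies on the plus strand at chr6:116627570-116629755 of GRCm39, inside an intron of Rassf4 (minus strand, chr6:116609956-116650913), and their annotated exons do not overlap.

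Fabp3, the fatty acid binding protein of heart and brown fat, stood at 42.6 normalized counts at D0, 43.3 at D3 and 8019 at D7, a log2 difference of 7.50 that began only after D3. Elf3, an epithelial ETS factor, rose by 6.90 from 1 read to 382 reads (interval 5.25 to 13.04), and Clic5, a chloride intracellular channel protein, by 6.46 from 4 reads to 755. Fbp2, the muscle form of the gluconeogenic enzyme fructose bisphosphatase, rose by 6.32, and the orphan receptor Gpr35 by 6.39. The others were the MHC class I gene H2-Q10 (6.40), whose reads can be shared with its near-identical neighbours, Smim41 (5.88), Lgr6, a receptor for R-spondins (5.61), and Shtn1, a cytoskeletal protein of growing axons (5.55). The FGF8-pretreated libraries, which share no library with the untreated pair, moved the same way for all 15 genes, with log2 differences between 3.62 for Gpr35 and 6.88 for Rassf4.

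Tpsab1, a tryptase known from mast cells, is among these increases, with 34.4 normalized counts at D3 and 7055 at D7 (log2 difference 7.64, interval 7.14 to 8.28). Of 15 markers of lymphocytes and mast cells, 2 passed the filter on low counts, Kit (3.21) and Cpa3 (0.45), and 6 had 0 counts in both libraries, among them the mast cell protease Mcpt4. The summed level of the 15 markers was 57.3 normalized counts at D3 and 160 at D7, and without Kit it was 48.4 and 69.6. Myoglobin belongs to a list of 20 skeletal muscle markers, of which 10, among them Myod1, Pax7 and the fast and embryonic myosins Myh1 and Myh3, had 0 counts in both libraries. Its summed level was 596 at D3 and 2003 at D7, and without Mb it was 592 and 446. Among 17 macrophage markers, 7 had 0 counts in both libraries, including Ptprc, Adgre1 and C1qa, and the sum went from 267 to 237. The 15 endothelial markers summed to 1359 and 769, with Sox17 at 0 counts. Of the 5 that passed the filter, 2 fell, Kdr (-2.25) and Eng (-1.46), and 1 rose, Tek (1.29). The 12 Schwann cell and neuron markers summed to 1703 and 2631, with Mbp at 2.29 and Tubb3 at -1.91, and the 11 mesothelial and epithelial markers to 94.2 and 516, with Krt19 at 2.52. The part of other cell types in the results was not tested beyond these values. The 22 adipocyte markers passed the filter throughout and summed to 568103 and 803066 normalized counts.

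**Figure D2:**
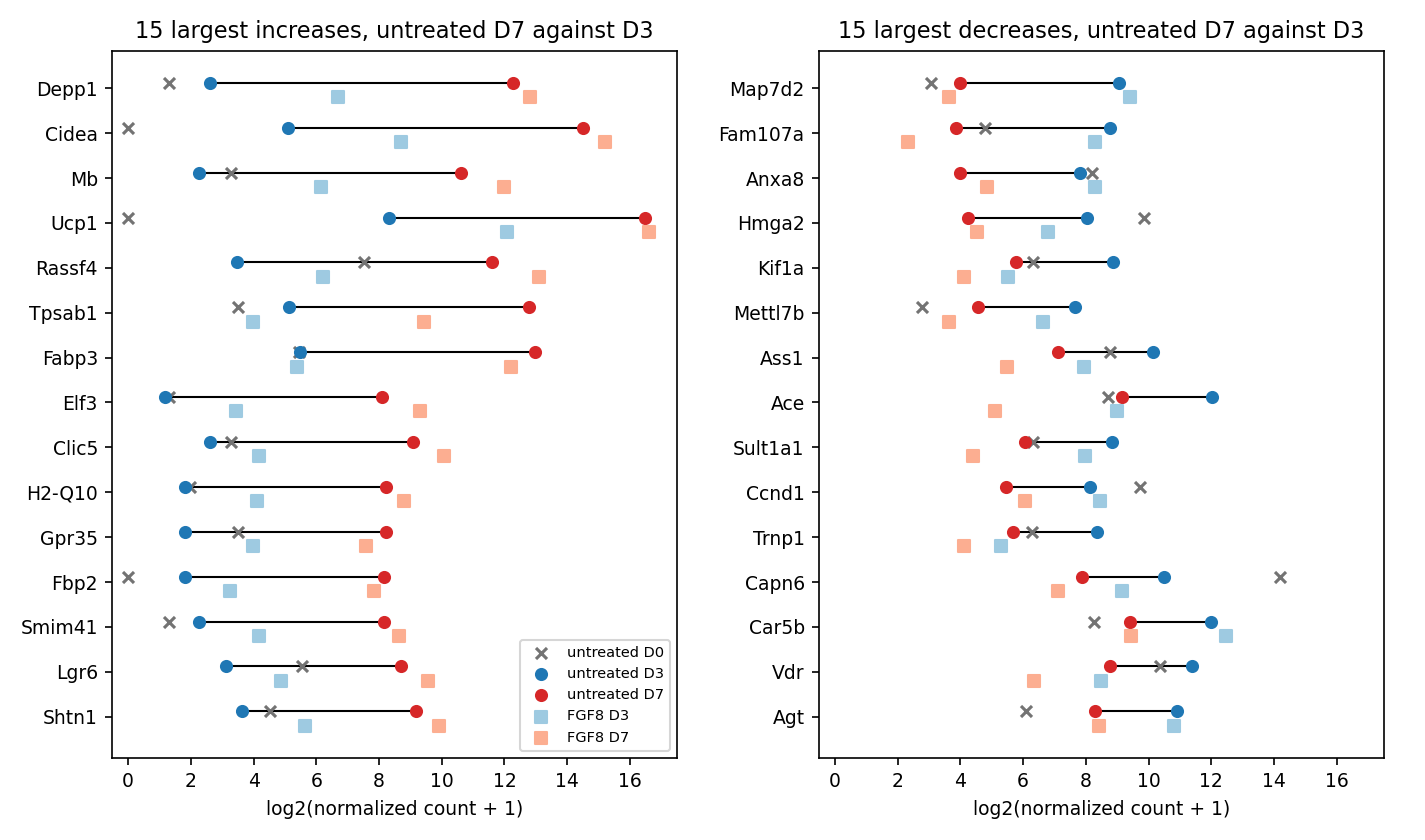
The 15 largest increases (left) and 15 largest decreases (right) from untreated D3 to untreated D7 among genes averaging 100 or more normalized counts, as log2(normalized count + 1) on the x axis with 1 library per symbol. Black lines join the untreated D3 (blue) and D7 (red) values, crosses mark untreated D0, and squares mark the FGF8-pretreated D3 and D7 libraries, which lie in the same order as the untreated ones for every gene shown.

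Among brown fat effectors, 17 of 19 measured genes rose (89.5%, beside 8.77% of all genes) and none fell. Their median log2 difference was 1.92 against -0.041 for all genes. Ucp1, the uncoupling protein itself, was not detected at D0, had 319 normalized counts at D3 and reached 91306 at D7, a log2 difference of 8.15 (interval 7.98 to 8.34). Isoforms of cytochrome c oxidase subunits that brown fat shares with muscle rose next to it. Cox7a1 went from 17.6 at D0 and 151 at D3 to 3751 at D7, and Cox8b from 0 and 228 to 3649, log2 differences of 4.62 and 4.00. Both therefore gained most of their final level after D3.

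Other brown fat effectors followed a graded order. The purinergic channel P2rx5 (61.1 normalized counts at D3, 994 at D7), the fatty acid receptor Ffar4 (311 and 4501) and the proton channel Otop1 (509 and 6296) rose by log2 differences of 4.00, 3.85 and 3.63. The amino acid transporter Slc36a2, the potassium channel Kcnk3 and the fatty acid elongase Elovl3 were already at 4953, 1847 and 2390 at D3 and rose 2.83-fold, 2.42-fold and 2.62-fold. The acyl-CoA thioesterase Acot11 dipped from 126 at D0 to 39.5 at D3 before it reached 1235 (4.93). The beta-3 adrenergic receptor Adrb3, which starts the noradrenaline response of fat cells, did not share this course, at 0, 1496 and 1346 normalized counts on D0, D3 and D7, a log2 difference of -0.15. The glycerol kinase Gk stood at 0.87. Dio2, the deiodinase that activates thyroid hormone, stayed below the filter with 304 normalized counts at D0, 2.55 at D3 and 26.3 at D7.

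The regulators of the brown fat program moved less than its effectors, with a median of 0.27. Of 18 measured genes, 4 were higher (22.2%) and 1 was lower (5.56%), beside 8.77% and 4.42% of all genes. The coactivator Ppargc1a, which drives mitochondrial biogenesis, rose from 951 to 2785 normalized counts (log2 difference 1.55). The lipid-sensing receptor Ppara rose from 2445 to 8630 (1.82), the orphan receptor Esrrg from 96.7 to 310 (1.67) and the histone demethylase Kdm3a from 2010 to 5470 (1.44). The defining factors Prdm16 and Ebf2 were within 2-fold, at 969 and 1273 and at 3412 and 4246. Lhx8, a homeobox factor used as a brown fat marker, fell by 1.08.

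Adipogenic transcription factors as a list lay slightly low, with a median of -0.32. Of 20 measured genes, 4 were lower (20.0%) and 1 was higher (5.0%), beside 4.42% and 8.77% of all genes. Pparg, the master regulator, had 3305 normalized counts at D3 and 4838 at D7 (0.55), and Cebpa 12872 and 6538 (-0.98). The early factor Cebpd fell from 1769 to 522 (-1.76), and Klf15 fell from 795 to 313 (-1.34). Rxra, the dimer partner of PPAR-gamma, fell by 1.11. Gata2, which restrains fat cell formation in preadipocytes, fell at each step, with 479, 179 and 37.6 normalized counts on D0, D3 and D7.

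Many classical fat cell genes were already high at D3, and some rose further. Of 22 mature adipocyte markers, 6 rose (27.3%) and 2 fell (9.09%), beside 8.77% and 4.42% of all genes. The other 14 stayed within 2-fold, 16 of the 22 lay above 0 and the median was 0.72. Fabp4, the fatty acid carrier of adipocytes, had 165, 162480 and 309620 normalized counts on D0, D3 and D7, a D3 to D7 log2 difference of 0.93. The hormone Adipoq had 1.47, 21274 and 18265 (-0.22), and the droplet coat protein Plin1 had 0, 10762 and 17469 (0.70). The genes that rose late were the retinol carrier Rbp4 (477 to 6548, 3.78), the hormone Lep (12.7 to 104, 2.94), the gluconeogenic and glyceroneogenic enzyme Pck1 (328 to 1425, 2.11) and the insulin-dependent glucose transporter Slc2a4 (3055 to 7461, 1.29). Cfd, the complement protease adipsin, and Retn, resistin, peaked at D3. Cfd went from 0 at D0 to 1984 and then fell to 533, and Retn from 0 to 1317 and then fell to 354, log2 differences of -1.89 for each. Per kilobase of annotated exon, Fabp4 was highest at D3 with 32805 normalized counts per kilobase, and Scd1 was highest at D7 with 75445, followed by Fabp4 (62511), the lactate transporter chaperone Bsg (54270) and Ucp1 (47040).

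Lipid synthesis rose at some of its steps. Of 28 genes of fatty acid and triglyceride synthesis, 8 rose (28.6%, beside 8.77% of all genes) and none fell (median 0.60). The stearoyl-CoA desaturase Scd1 went from 90113 to 543650 normalized counts (2.59) and its paralog Scd3 from 216 to 1639 (2.92), although reads of these similar genes can be shared. Acss2, which makes acetyl-CoA from acetate, rose by 2.27, and Acacb, the acetyl-CoA carboxylase at the mitochondrial surface, by 2.25. The fatty acid synthase Fasn was at 84007 and 90653, a log2 difference of 0.11. Of 19 lipid droplet and lipolysis genes, 8 rose (42.1%) and none fell (median 0.59). Besides Cidea, these included its relative Cideb (3.65), the lipase inhibitor Hilpda (2.07), Plin5, which ties droplets to mitochondria (1.85), and the antilipolytic receptor Hcar2 (1.65).

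**Figure D3:**
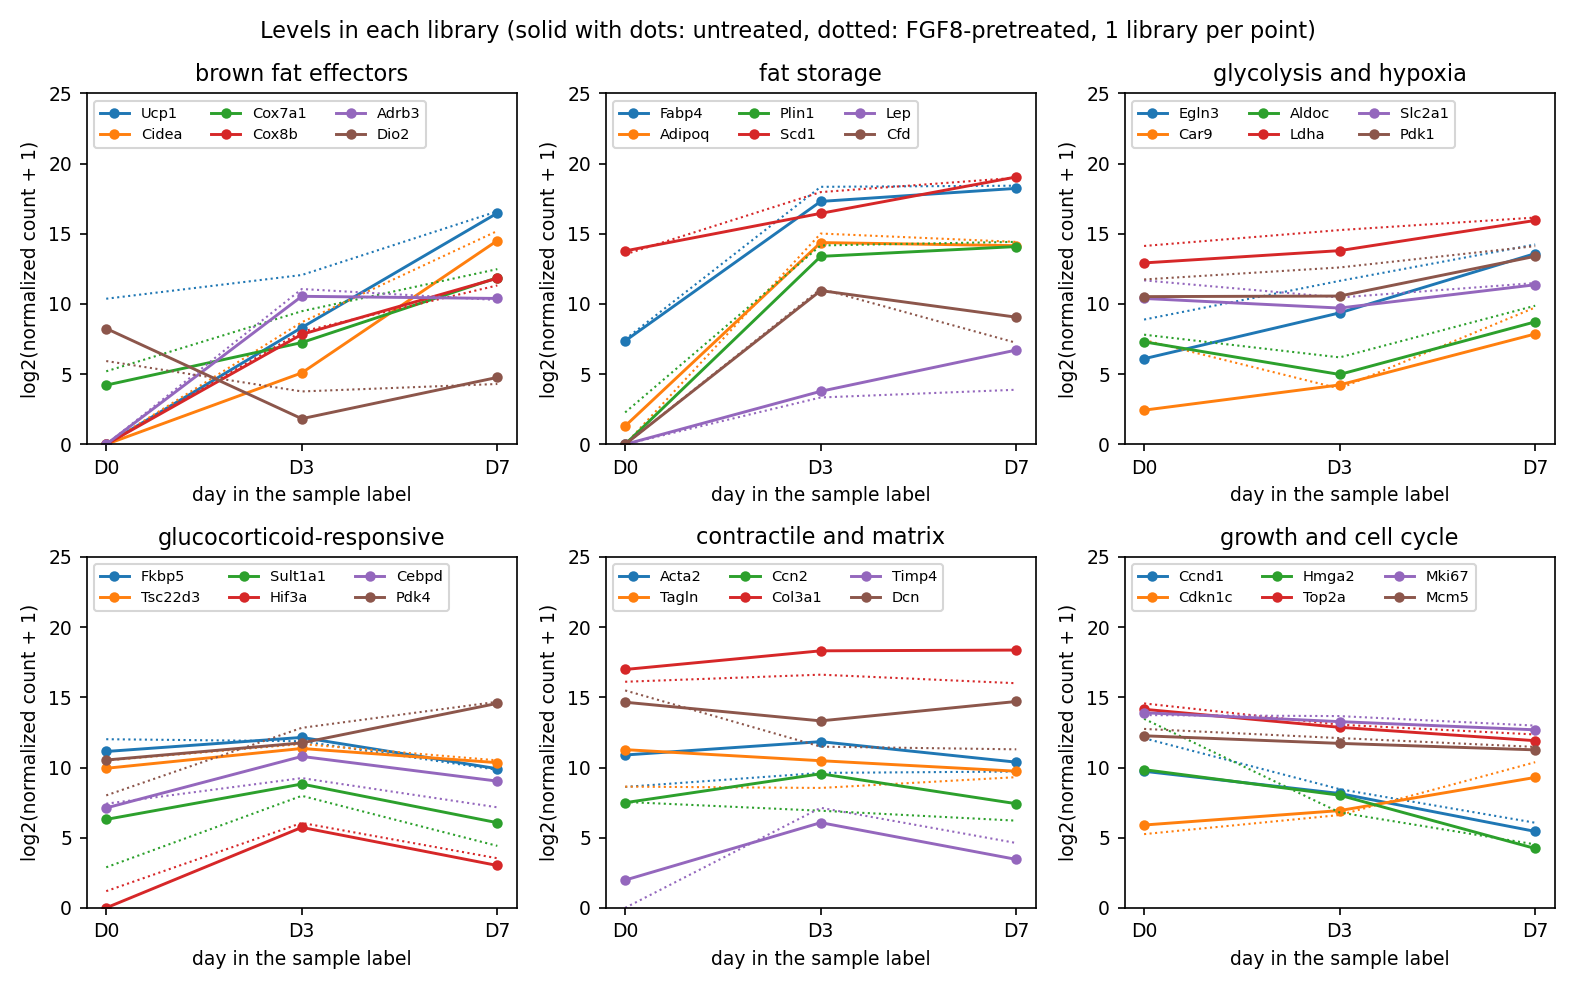
Level of named genes in each of the 6 libraries, as log2(normalized count + 1) on the y axis against the day in the sample label on the x axis, in 6 panels. Solid lines with dots are untreated and dotted lines FGF8-pretreated cells, with 1 library per point and no error. Ucp1, Cidea, Cox7a1 and Cox8b climb after D3 in untreated cells, Adipoq and Plin1 are near their D7 level at D3, Cfd and 5 of the 6 glucocorticoid-responsive genes shown fall after D3, and Ccnd1 and Hmga2 fall at each step.

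Fatty acid oxidation rose at most of its steps. Of its 27 enzymes, 15 rose (55.6%, beside 8.77% of all genes) and none fell (median 1.15). Acaa2, the last enzyme of the mitochondrial cycle, went from 11265 to 47301 normalized counts (2.07), and the trifunctional protein subunits Hadhb and Hadha rose by 2.03 and 1.55. Of the carnitine palmitoyltransferases, the muscle and brown fat form Cpt1b rose from 73.8 to 217 (1.54), while the liver form Cpt1a was at 2735 and 2881 (0.075, interval -0.0011 to 0.15). Among 30 peroxisomal genes, 7 rose (23.3%) and none fell (median 0.47). They were led by Acaa1b (3.59), whose reads can be shared with its near-identical neighbour Acaa1a, and by the phytanic acid enzyme Phyh (2.92). Phyh went from 1710 at D0 to 704 at D3 and 5338 at D7.

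The respiratory chain moved as a block of small and even steps. Of 37 nuclear-encoded subunits of complex I, all lay above 0, between 0.56 for Ndufb7 and 1.43 for Ndufa3 (median 1.07). Of these, 24 reached 2-fold (64.9%, beside 8.77% of all genes). Many of these values lie near the 2-fold line, and over the scalings tried the count ran from 14 with total counts to 28. Of 26 subunits of complexes III and IV, 15 rose (57.7%) and all were above 0 (median 1.04), with 8 rising when total counts set the scaling. Their widest steps were in the tissue isoforms Cox7a1, Cox8b and Cox6a2 (2.70). Among the other subunits, Cox6a1 stood at 1.21 and Cox5a at 1.48. For ATP synthase, 1 of 19 genes, Atp5h, rose by 1.02 and the median was 0.87. Atp5g1, which like its paralogs Atp5g2 and Atp5g3 codes for the rotor subunit of this enzyme, stood at 1867 and 1329 normalized counts (-0.49). Over the scalings, pseudocounts and thinning tried, Atp5g2 lay between 0.47 and 0.66 and Atp5g3 between 0.15 and 0.33. The inhibitor Atpif1 was at 1353 and 1497. No gene encoded in the mitochondrial genome is listed in the files, so this part of the chain could not be followed.

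Of 31 genes of the TCA cycle and pyruvate entry, which feed the chain, 14 rose (45.2%, beside 8.77% of all genes) and none fell (median 0.98). With total counts as the scaling, 9 rose. The list holds the citrate synthase Cs (45038 to 104110 normalized counts, 1.21) and the pyruvate carrier Mpc1 (1.60). The kinases that shut pyruvate dehydrogenase led this list, Pdk1 with 1516 and 10806 and Pdk4 with 3450 and 24336, log2 differences of 2.83 and 2.82. Of 78 mitochondrial ribosomal proteins, 1, Mrps36, reached 2-fold (1.44, median 0.46). None of 33 biogenesis and import genes did so (median 0.27), and the mitochondrial DNA packaging factor Tfam was at 0.44. Of 23 genes of branched-chain amino acid breakdown, 3 rose (13.0%), while the transaminase Bcat2, which starts it, fell by 1.02 (median 0.39).

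Glycolysis and hypoxia-responsive genes had a median of 1.93, the largest among the 40 lists that are not markers of other cell types and on a par with the brown fat effectors. Of its 34 measured genes, 26 rose and none fell (76.5%, beside 8.77% of all genes). Egln3, the oxygen-sensing prolyl hydroxylase that is itself a target of hypoxia-inducible factors, went from 67.6 at D0 and 659 at D3 to 12357 at D7 (4.23). The hypoxia-induced carbonic anhydrase Car9 had 4.41, 17.8 and 232 normalized counts (3.63). The glycolytic enzymes rose along most of the pathway, with Aldoc (157, 30.5 and 423, 3.75), Pfkp (1350, 1216 and 10276, 3.08), Pgk1 (3046, 12003 and 54360, 2.18) and Ldha (7788, 14290 and 63510, 2.15). Aldoc and Pfkp were lower at D3 than at D0, whereas Pgk1 and Ldha climbed at both steps. Bnip3, a mitophagy protein, rose by 2.94 and the glucose transporter Slc2a1 by 1.66. The transcription factor Hif1a, which is regulated mainly at its protein, had 4890 and 4639 normalized counts (-0.076).

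The promoters of 4 of these genes are shown for the letters ACGTG, the core of the hypoxia response element, which is CACGT when it lies on the other strand. This motif was added after the values had been seen. The sequences are from RefSeq on the build GRCm38.p6 and run from 250 bases before to 50 bases after the annotated start, 5′ to 3′ on the strand of the gene, with the motif in capitals on either strand. They lie at chr4:43506776-43507075 (plus strand) for Car9, chr12:54203825-54204124 (minus strand) for Egln3, chr11:78322823-78323122 (plus strand) for Aldoc and chr7:46845554-46845853 (plus strand) for Ldha.
Car9: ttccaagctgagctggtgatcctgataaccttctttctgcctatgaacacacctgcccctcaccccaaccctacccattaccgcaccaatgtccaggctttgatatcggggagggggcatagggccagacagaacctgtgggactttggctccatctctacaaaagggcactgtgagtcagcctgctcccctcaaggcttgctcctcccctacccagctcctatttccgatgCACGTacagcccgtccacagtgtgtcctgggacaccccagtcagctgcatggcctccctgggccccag
Egln3: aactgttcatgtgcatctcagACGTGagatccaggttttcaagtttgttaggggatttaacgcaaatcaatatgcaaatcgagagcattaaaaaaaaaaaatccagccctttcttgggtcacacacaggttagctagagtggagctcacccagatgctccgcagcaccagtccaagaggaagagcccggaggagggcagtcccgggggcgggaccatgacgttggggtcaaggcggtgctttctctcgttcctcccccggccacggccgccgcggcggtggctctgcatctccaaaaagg
Aldoc: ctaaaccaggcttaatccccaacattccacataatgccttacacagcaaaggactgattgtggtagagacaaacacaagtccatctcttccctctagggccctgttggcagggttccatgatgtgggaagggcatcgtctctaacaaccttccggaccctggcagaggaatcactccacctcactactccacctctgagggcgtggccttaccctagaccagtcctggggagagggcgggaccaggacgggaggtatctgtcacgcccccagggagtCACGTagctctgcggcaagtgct
Ldha: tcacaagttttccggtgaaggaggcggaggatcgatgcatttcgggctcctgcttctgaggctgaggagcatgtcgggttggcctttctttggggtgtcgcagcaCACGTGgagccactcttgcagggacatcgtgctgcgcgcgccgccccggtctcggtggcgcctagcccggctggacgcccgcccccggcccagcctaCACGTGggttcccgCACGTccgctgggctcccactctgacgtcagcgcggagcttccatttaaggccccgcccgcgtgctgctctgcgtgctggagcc
Car9, Egln3 and Aldoc hold the letters once, near the start in Car9 and Aldoc and far upstream in Egln3, while Ldha holds 5 matches in 3 stretches, since the palindrome CACGTG counts on both strands. The other listed promoter of Aldoc and of Ldha holds none. ACGTG was in 47.9% of the 48 promoters of the glycolysis and hypoxia genes. It was in 19.6% of all 32851 promoters of the table, 25.3% of those of the genes compared and 22.6% of those of the genes that rose. The share was not particular to this list, with 52.4% for circadian clock genes (11 of 21 promoters), 45.0% for cAMP-responsive genes and 42.9% for brown fat effectors. It was low in others, such as 6.82% for interferon-stimulated genes and 4.35% for fatty acid oxidation enzymes. A match of letters is a description and no binding site.

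Genes that respond to glucocorticoids had the lowest median of the lists, -0.84. Of 21 genes, 9 were lower (42.9%) and 5 higher (23.8%), beside 4.42% and 8.77% of all genes. Fkbp5, the co-chaperone that reports glucocorticoid receptor activity, went from 4522 to 963 normalized counts (-2.23). Tsc22d3, which codes for GILZ, went from 2618 to 1300 (-1.01), and Zbtb16 had 0, 2297 and 542 on D0, D3 and D7 (-2.08). The sulfotransferase Sult1a1 and the hypoxia factor variant Hif3a, with 77.9, 452 and 66.0 and with 0, 52.2 and 7.10 normalized counts, had log2 differences of -2.76 and -2.72. These 5 genes had in common a peak in the D3 library. The members that rose were Pdk4 together with the metallothioneins Mt2 (1.74) and Mt1 (1.08), the mTORC1 inhibitor Ddit4 (1.67) and the phosphatase Dusp1 (1.08). What set them apart from the members that fell was not tested. Genes that respond to cAMP showed no common step, with 2 of 17 higher and 2 lower (11.8% each). Their median was 0.0034 and changed sign with the scaling. Nr4a3 fell from 52.2 to 15.6 normalized counts (-1.68) and Atf3 rose by 1.81.

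Of 21 adrenergic and cAMP pathway genes, 2 rose (9.52%) and 4 fell (19.0%), beside 8.77% and 4.42% of all genes, with a median of 0.35. The receptors Adra1a (0, 43.3 and 438 normalized counts on D0, D3 and D7, 3.31) and Adrb1 (2.94, 66.2 and 442, 2.72) rose. Adra1b fell by 1.60, as did the phosphodiesterase Pde10a (-1.43) and Rgs2, a brake on G proteins (-1.20). Of 26 adipokines and secreted factors, 11 rose (42.3%) and 5 fell (19.2%), with a median of 0.64. Besides Rbp4 and Lep, these included the angiogenic factor Vegfa (7347 to 27908, 1.93), the fasting hormone Fgf21 (157 to 568, 1.85) and Nrg4, a brown fat signal to the liver (400 to 1290, 1.69). Lipocalin 2 (Lcn2) fell from 1770 to 334 (-2.40). Of 40 FGF, EGF and IGF pathway genes, 6 rose and 7 fell, with Fgf1, a PPAR-gamma target in fat, at 24.2 and 488 normalized counts (4.28) and Igfbp3, a carrier of insulin-like growth factors, at 19942 and 3483 (-2.52).

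The 15 largest decreases were led by Map7d2, a microtubule-binding protein (chrX:158197438-158283103 in GRCm39), with 7.34, 531 and 14.9 normalized counts on D0, D3 and D7 (-5.06, interval -5.86 to -4.52). Fam107a, an actin-bundling stress protein induced by glucocorticoids, had 26.4, 440 and 13.5 (-4.93, interval -5.78 to -4.36). The annexin Anxa8 (-3.82) and Hmga2, a chromatin protein of growing embryonic and mesenchymal cells (-3.80), followed. Their courses differed. Hmga2, Ccnd1 and Capn6 fell at both steps, with 921, 260 and 17.7 for Hmga2, 849, 283 and 42.6 for the cell cycle cyclin Ccnd1 and 18878, 1454 and 236 for Capn6. Map7d2, Fam107a, the angiotensin-converting enzyme Ace (420, 4201 and 569), angiotensinogen Agt (67.6, 1917 and 314), the mitochondrial carbonic anhydrase Car5b (304, 4116 and 674) and the urea cycle enzyme Ass1 (438, 1128 and 136) instead peaked at D3. The remaining ones, Kif1a (-3.11), Mettl7b (-3.10), Sult1a1, Trnp1 (-2.66) and the vitamin D receptor Vdr (-2.61), also peaked at D3. Anxa8 had 294, 224 and 14.9 normalized counts on D0, D3 and D7. In the FGF8-pretreated pair, all 15 were lower at D7 than at D3, with log2 differences between -5.94 for Fam107a and -1.17 for Trnp1.

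Cell cycle genes lay mostly lower at D7, by steps that did not reach 2-fold. Of 46 mitosis and G2/M genes none rose or fell, 44 were below 0 and the median was -0.57. Top2a, which untangles chromosomes, had 18154, 7458 and 3851 normalized counts on D0, D3 and D7 (-0.95), and the proliferation marker Mki67 had 15304, 9870 and 6582 (-0.58). Their transcripts remained abundant in the late cultures. For 46 DNA replication genes the median was -0.23, none reached 2-fold, and the helicase subunit Mcm5 had 3370 and 2446 (-0.46). Beside them, Cdkn1c, an inhibitor of cyclin-dependent kinases, rose from 121 to 626 (2.36), and Ccnd1 fell by 2.70. The letters TTTGAA, a core of the cell cycle homology region, stood on either strand in 80.0% of the 40 promoters of the mitosis genes and CCAAT in 77.5%, against 17.9% and 37.4% of all promoters and 1599 and 5057 of the 13282 promoters of the genes compared. All 77 cytosolic ribosomal proteins measured stayed within 2-fold, with a median of -0.12.

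Contractile genes lay mostly lower at D7. Of 26 contractile and myofibroblast genes, 7 fell (26.9%) and 1 rose (3.85%), beside 4.42% and 8.77% of all genes. Their median was -0.70. Acta2, the smooth muscle actin of myofibroblasts, went from 1898 at D0 and 3669 at D3 to 1332 at D7 (-1.46), and the smooth muscle myosin Myh11 from 16.2 and 379 to 108 (-1.80). The intermediate filament Des ran the other way, from 82.7 at D3 to 650 at D7 (2.96). In the FGF8-pretreated pair the list's median over the same genes was -0.28, and Acta2 stood at 783 and 838 normalized counts.

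Most matrix genes lay below 0. Of 48 matrix glycoprotein and remodelling genes, 34 lay below 0 and the median was -0.26. Of these 48, 10 fell (20.8%, beside 4.42% of all genes) and 5 rose (10.4%, beside 8.77% of all genes). Ccn2, a target of mechanical and TGF-beta signals, went from 750 to 170 normalized counts (-2.13), and the membrane protease Mmp14 from 26483 to 8957 (-1.56). Timp4, a protease inhibitor of fat tissue, peaked at D3 (2.94, 66.2 and 9.94, -2.62). The small proteoglycans Lum (395 to 1966, 2.31) and Dcn (10242 to 26683, 1.38) rose. The abundant fibrillar collagen genes Col3a1, at 326050 and 338090 normalized counts, and Col1a1, at 152230 and 163720, were close to level, while Col5a1 stood at -0.49 and Col5a2 at -0.52. The median of the 26 collagens was 0.053 and turned to -0.090 with total counts. Also among the fibrillar collagens, Col27a1 rose by 2.45 and Col11a1 fell by 2.24. Among 26 laminin, integrin and other basement membrane genes, Lamb3 rose by 3.09 and Lama3 fell by 2.65, although the proteins of both assemble into the same laminin.

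Progenitor markers lay mostly lower at D7. Of 29 preadipocyte and progenitor markers, 7 fell (24.1%) and 2 rose (6.9%), beside 4.42% and 8.77% of all genes. Their median was -0.71. The preadipocyte factor Dlk1 had 9414, 1107 and 376 normalized counts on D0, D3 and D7 (-1.56), the homeobox factor Meox2 had 372, 48.4 and 13.5 (-1.77), and Sox9 had 386, 831 and 257 (-1.69). The progenitor receptor Pdgfra remained at 13042 normalized counts at D7, after 20193 at D3 and 68261 at D0 (-0.63). Of 30 TGF-beta and BMP pathway genes, 8 fell (26.7%) and 1 rose (3.33%), with a median of -0.36. The activin subunit Inhba stood at -1.53, the BMP antagonist Grem1 at -1.75 and the BMP target Id1 at -1.37.

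Immune and stress genes were mixed. Of 49 interferon-stimulated genes, 1 rose (Oas3, 1.61) and 1 fell (Ifit1, 7267 to 3179, -1.19), with a median of -0.29. Each was 2.04% of the list, below the 8.77% and 4.42% of all genes. Among 26 chemokines and cytokines, 6 fell (23.1%) and 3 rose (11.5%), beside 4.42% and 8.77% of all genes (median -0.37). Cxcl13, which attracts B cells, went from 130 to 7.10 normalized counts (-4.01). Of 28 complement and acute-phase genes, 6 rose and 6 fell (21.4% each), beside 8.77% and 4.42% of all genes. Their median was -0.41, and 16 of the 28 lay below 0. Itih5, an inter-alpha-trypsin inhibitor heavy chain of adipocytes, rose from 163 to 3241 (4.31). Of 31 ATF4 and unfolded protein response genes, 6 rose (19.4%) and none fell (median 0.17). Those that rose include the pseudokinase Trib3 (2.24) and the factor Ddit3 (1.44). Of 38 antioxidant and detoxification genes, 10 rose (26.3%) and 1 fell (2.63%), with a median of 0.22. The epoxide hydrolase Ephx2 stood at 2.13, mitochondrial superoxide dismutase Sod2 at 1.59 and the retinaldehyde dehydrogenase Aldh1a1 at -1.84. In addition, 4 of 19 clock genes (21.1%) rose, among them Bhlhe40 at 2.06, with a median of 0.36. Of 22 antigen presentation genes, 2 rose (9.09%, close to the 8.77% of all genes), with Psmb9, a subunit of the immunoproteasome, at 1.90. Cholesterol synthesis and uptake had 3 of 30 genes higher (10.0%, close to the share of all genes, median 0.14). Creatine and calcium cycling had 3 of 12 higher and 1 lower (median 0.11). Both medians lay close to the -0.041 of all genes, and the sign of each changed with the scaling. The sterol exporter Abcg1 (1.92) and the phosphatase Alpl (3.67) were the largest increases in these lists. In creatine and calcium cycling, the shares of higher and lower genes exceeded the 8.77% and 4.42% of all genes, but rested on 12 genes.

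**Figure D4:**
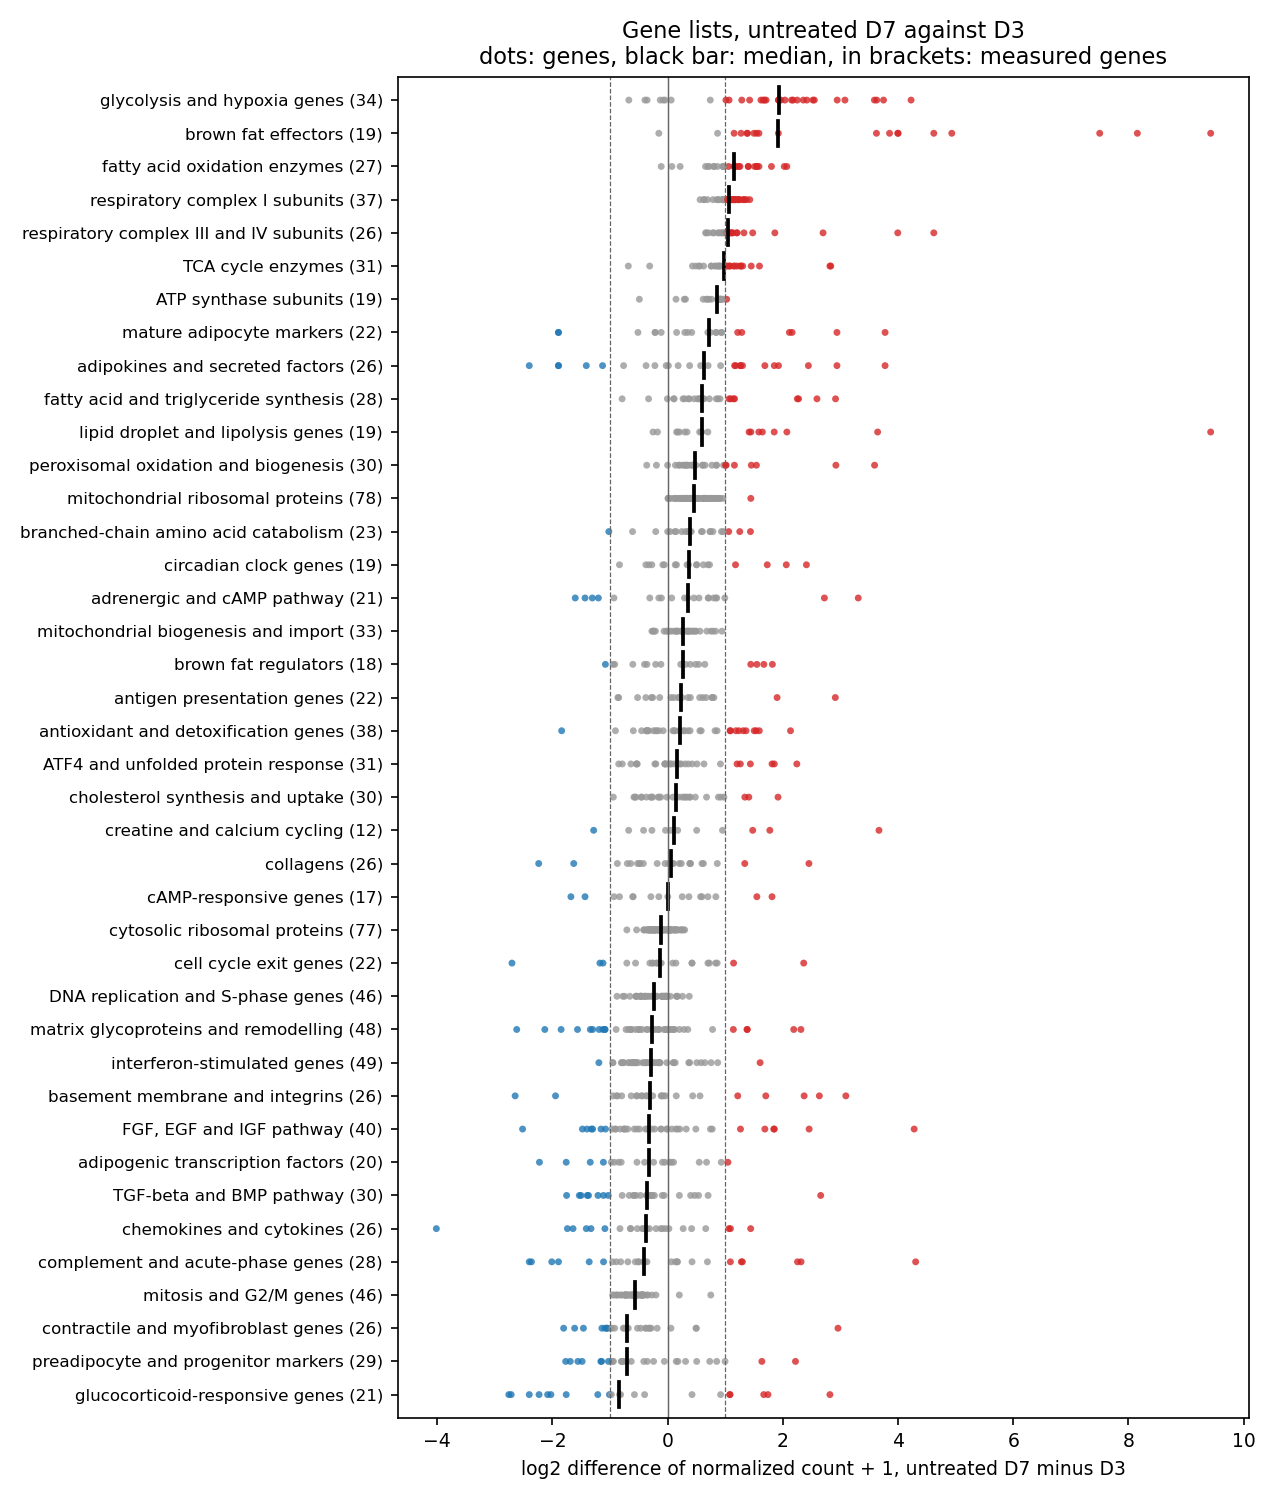
Log2 difference of normalized count + 1, untreated D7 minus D3, of the measured genes of 40 gene lists, 1 dot per gene and 1 row per list ordered by the median (black bar). Dashed lines mark 2-fold, red dots genes at least 2-fold higher and blue dots at least 2-fold lower. Glycolysis and hypoxia genes (median 1.93) and brown fat effectors (1.92) stand at the top, and glucocorticoid-responsive genes (-0.84) at the bottom.

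Other promoter motifs were searched in the same windows. GCGCATGCG, the letters of the factor NRF1, was in 3.46% of the promoters of all genes compared and in 1.75% of all promoters of the table. Its share was 21.1% (4 of 19 promoters) for complex III and IV genes, 13.0% (3 of 23) for fatty acid oxidation and 9.33% for the mitochondrial ribosomal proteins, and it stood in 3 of the 20 promoters of ATP synthase genes. For complex I it was 5.71% (2 of 35). Lists without a mitochondrial role had shares near these, with 10.0% (4 of 40) for mitosis, 9.52% for clock and 8.89% for DNA replication genes. CCGGAAGT, an ETS factor motif, was in 7.85% of the promoters of the genes compared and 3.89% of all. It was in 9 of the 41 promoters of mitochondrial biogenesis and import, a list in which no gene reached 2-fold, in 12 of the 75 promoters of the mitochondrial ribosomal proteins, in 15.8% of those of complexes III and IV and in 15.2% of those of the cytosolic ribosomal proteins. For complex I its share was 2.86% (1 of 35 promoters), and for DNA replication genes 11.1%. TCAAGGTCA, the element of estrogen-related receptors, was in 0.524% (6) of the promoters of genes that rose, 0.264% of those of the genes compared and 0.423% of all. Most of these shares rest on few promoters. All were searched on both strands, and 10432 of the 13153 genes had a promoter in the table.

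The FGF8-pretreated cultures passed through the same days, and their D3 and D7 libraries give a pair that shares no library with the untreated one. In it, 1050 of 12869 genes were at least 2-fold higher (8.16%) and 695 at least 2-fold lower (5.4%). Of the 1154 genes that rose in untreated cells, 686 (59.4%) also rose, 461 stayed within 2-fold and 7 fell, with a median log2 difference of 1.19 against 1.59. Of the 581 that fell, 353 (60.8%) also fell, 222 stayed within 2-fold and 6 rose, with medians of -1.23 and -1.38. Both sets were chosen by their untreated differences, so smaller medians in the other pair can follow from the choice alone. Across the 12713 genes that passed the filter in both pairs, Pearson's r of the log2 differences was 0.80 and Spearman's rho 0.71. These describe genes, which are not independent replicates, and all 6 libraries share 1 set of size factors.

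Several lists had smaller medians in the FGF8 pair, and their genes were higher in the FGF8 than in the untreated library at D3. These are not 2 independent observations, since both use the same untreated D3 library. Complex I subunits had a median of 0.49 in the FGF8 pair, with 1 of 37 genes at 2-fold, and their median difference between the FGF8 and the untreated library was 0.94 at D3 and 0.41 at D7. For fatty acid oxidation enzymes the FGF8 pair gave 0.44, with 0.81 at D3 and 0.30 at D7 between the pretreatments. For glycolysis and hypoxia genes it gave 0.97, with 1.06 and 0.28. Brown fat effectors had 1.77 against 1.92 and glucocorticoid-responsive genes -0.99 against -0.84. These differences between pairs were not tested, since each rests on 4 libraries without replicates.

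Single genes differed more. Ucp1 stood at 4287 normalized counts at D3 after FGF8 and rose by 4.54 to 99587, so its step was smaller and its end level near the untreated one. Depp1 (6.13 against 9.66) and Smtnl2, a smoothelin-like protein (0.87 against 4.30), likewise started higher after FGF8. Serpina3n, an acute-phase protease inhibitor, went from 5443 to 3823 normalized counts in untreated cells but from 597 to 14.6 after FGF8, and the acute-phase protein Saa3 from 14286 to 8854 but from 5281 to 254. In the other direction, the phosphodiesterase Pde3a was at 289 and 266 in untreated cells and rose from 48.4 to 260 after FGF8, and Bdh2, Rragd and Gask1a shared this course with FGF8 log2 differences of 2.23, 3.05 and 2.01. Of 11168 genes that averaged 100 or more normalized counts over the 4 libraries, 4 moved 2-fold in opposite directions, namely Irf5, Sts, Ces1d and Trf.

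**Figure D5:**
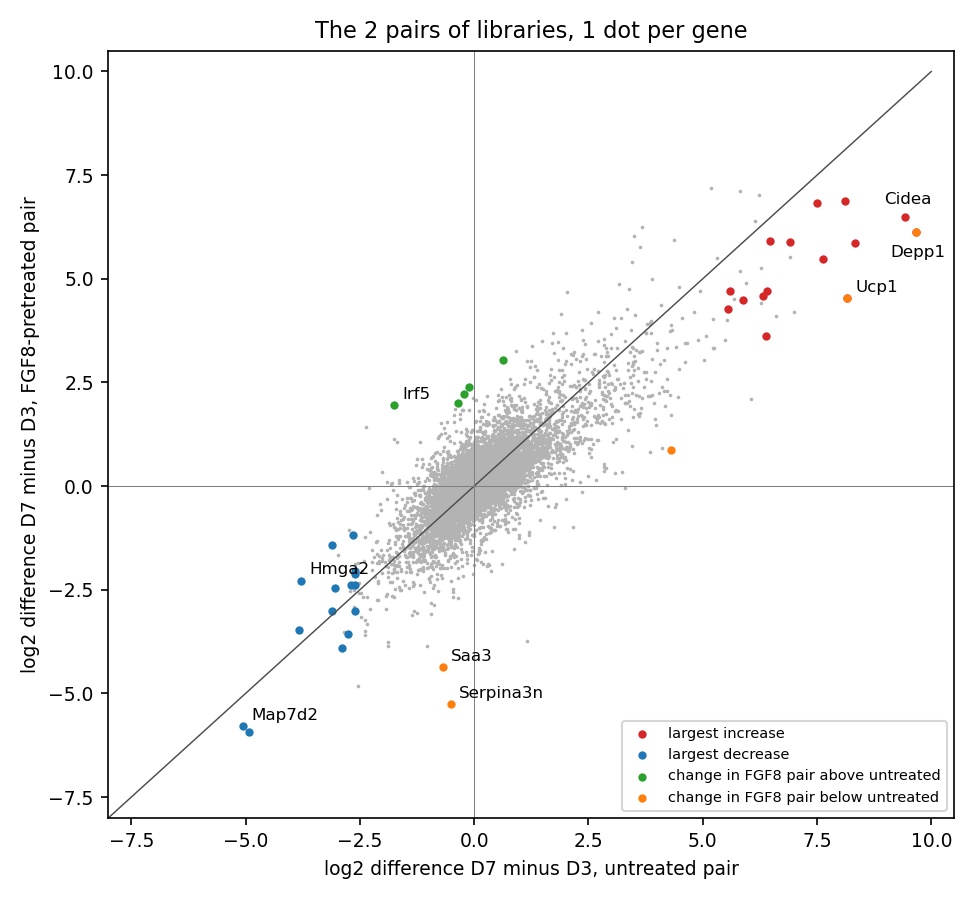
Log2 difference D7 minus D3 of each gene in the untreated pair (x axis) and in the FGF8-pretreated pair (y axis), for the 12713 genes that passed the filter in both, with the diagonal marking equal differences. The largest untreated increases (red) and decreases (blue) keep their direction on the y axis, Serpina3n and Saa3 lie far below the diagonal, and Irf5 is above it with opposite signs.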

How the data were processed

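Bulk RNA sequencing of 6 libraries was used, of which the untreated D3 and D7 libraries form the comparison. The authors prepared libraries with a stranded kit, used TrimGalore for trimming, HISAT2 for alignment to GRCm39 (mm39) and featureCounts to count reads for each gene, and deposited these counts with no normalization. Tool versions, annotation, strand setting and the treatment of multi-mapped reads are not given in the sources used here, so values of near-identical genes are uncertain. Groups were taken from the sample labels. Of the 26264 symbols, 23897 (91.0%) were found in GENCODE M39, which gave coordinates and exon lengths.

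Counts (16403254 to 38551551 per library) were scaled by the median-of-ratios size factors of DESeq2 (1.42.0, R 4.3.3). Differences are of log2(normalized count + 1), kept for genes averaging 20 or more normalized counts in the pair and counted as changed from 2-fold. Intervals are 95% exact binomial (Clopper-Pearson) intervals of the ratio of 2 counts and, like all precision given, cover counting error only (Python 3.11.15, scipy 1.17.1). With 1 library per condition there was no test. Motif shares were counted in RefSeq promoters (GRCm38.p6). The counting step was tested on simulated data.

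The genes named are the 15 largest increases and decreases among genes averaging 100 or more normalized counts, without predicted gene models, the 5 genes per direction that differed most between the untreated and the FGF8 pair, the 10 genes highest per kilobase in each library of the pair, and members of 46 lists, 6 of them markers of other cell types. The comparison, its genes and the lists were chosen with earlier results of these data known. The genes Sts, Ces1d and Trf, and the motif ACGTG, were chosen after their values were seen. The alternatives were TMM scaling (edgeR 4.0.16), total counts, size factors within the pair, pseudocounts of 0.5 and 5, an average of 100 or more in place of 20, all genes with any count, rules of 1.5-fold and of 4-fold, and the D7 library thinned to the D3 total.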

Additional observations from a re-analysis of the deposited data

Results flagged for a closer look

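Irf5, an interferon regulatory factor on the plus strand of chromosome 6 of GRCm39 (29526276 to 29541870), moved in opposite directions in the 2 pairs. In untreated cells it had 102 reads at D3 and 53 at D7, or 130 and 37.6 normalized counts, a log2 difference of -1.76. In FGF8-pretreated cells it had 67 and 229 reads, or 47.0 and 186 normalized counts, a log2 difference of 1.96. At D0 the untreated library held 444 normalized counts of Irf5 and the FGF8-pretreated library 143. The difference between the pairs was not tested, since each condition has 1 library.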

How the results depend on the processing

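The counts of changed genes depended most on the filter and on the fold. Without a filter on low counts, 2538 genes were at least 2-fold higher and 1661 lower, and among genes averaging 100 or more normalized counts 367 were lower. A 1.5-fold rule gave 2270 higher and 1687 lower genes, and a 4-fold rule 405 and 94. Fewer or more genes pass such rules by their construction. TMM scaling, total counts, size factors within the pair, pseudocounts of 0.5 and 5 and thinning of the D7 library gave between 955 and 1244 higher and between 546 and 819 lower genes. Of 46 lists, 42 kept the sign of their median in every scaling, pseudocount and thinning tried, and creatine and calcium cycling, cAMP-responsive genes, collagens and cholesterol synthesis did not. In lists with few calls the counts moved more, with up to 4 mitosis genes lower in place of 0, up to 5 basement membrane genes lower in place of 2, as few as 3 glucocorticoid-responsive genes higher in place of 5 and as few as 1 chemokine or cytokine higher in place of 3. Of 333 named genes past 2-fold, 287 stayed past it in all of these settings and 0 changed sign. No paired analysis was possible because each condition has 1 library and the labels carry no replicate numbers, and no library could be left out. Genes with few reads at D3, among them Elf3, Mb and Depp1, have wide intervals and their folds are limited by the depth of that library.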

Other observations

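Several genes were lowest in the middle of the course of untreated cells. Rassf4, Acot11, Aldoc and Phyh each had fewer normalized counts at D3 than at D0 and D7, with 184, 10.2 and 3105 for Rassf4 and 1710, 704 and 5338 for Phyh. Itih5 had 2011, 163 and 3241. In FGF8-pretreated cells Itih5 rose from 246 at D0 over 375 at D3 to 5529 at D7, without this low point. Lep stood at 104 normalized counts in the untreated D7 library and at 13.8 in the FGF8-pretreated one.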
